A study of Mus musculus with 2 samples.

Results

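Solute carriers are the membrane proteins that move ions, metals, sugars, amino acids, vitamins and metabolites across the plasma membrane and the membranes of organelles, and their genes are named Slc with a family number, a letter and a member number. The genes described here are all features with such a symbol and at least 100 UMIs over the RNAlater matrix, apart from 6 that were left out by name (Slc12a2, Slc26a4, Slc26a7, Slc4a11, Slc45a2 and Slc24a5). The rule gave 174 of the 361 features with a solute carrier symbol, and 181 were under the minimum. The count matrices hold 48816 features in all, 11170 of them with the same minimum of UMIs. At the edge of the minimum, Slc5a11, Slc25a22 and Slc3a1 were inside with 112, 107 and 101 UMIs, and Slc37a1, Slc16a9 and Slc25a10 were outside with 96, 95 and 93.

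The stria vascularis is the epithelium of the cochlear lateral wall that secretes potassium into the endolymph and maintains the endocochlear potential. Marginal cells face the endolymph, and basal cells close the layer towards the spiral ligament. Intermediate cells are melanocytes that lie between the marginal and basal cells. Spindle cells sit at the borders of the stria and root cells just beyond it in the spiral ligament, and Reissner's membrane bounds the endolymph on the other side. Transport across these layers is the work of the tissue, and solute carriers that recycle potassium, bicarbonate, thiamine or glucose there are known from inherited hearing loss and from physiology.

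Nuclei came from the stria vascularis of CBA/J mice at P30 (postnatal day 30), for which the labels name no altered allele and no treatment other than preservation. In the MethFix library, isolated nuclei were fixed in methanol, and in the RNAlater library the dissected tissue was kept in RNAlater before nuclei were isolated. Each library is 1 pool of animals of both sexes, of 5 and 6 mice by the methods and of 5 to 6 and 10 mice by the sample labels. There is thus no replicate of either method, no test was made, and all intervals are exact 95% intervals that cover counting error only, Poisson for a level and from the binomial split of both counts for a ratio.

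After filtering, 2311 RNAlater nuclei (median 4702 UMIs) and 3372 MethFix nuclei (median 3499 UMIs) were clustered without the solute carriers described here, and clusters were named from marker lists. The classes are marginal-like, intermediate-like, basal-like, root-like, spindle-like and Reissner-like nuclei, written marginal nuclei and so on for short. They held 672, 522, 605, 69, 56 and 155 nuclei in RNAlater, and 1087, 854, 750, 72, 97 and 155 in MethFix. Levels are in CPM, the UMIs of a gene divided by all UMIs of the class and scaled to 1e6, so that a gene can be compared between classes but not with another gene, whose length and capture differ. The lists that gave the names hold the single markers below, so their levels are no check of the names. Some lists reached into other classes of RNAlater. Slc26a4, on the root and spindle lists, was at 2803 CPM in root and 1395 in spindle nuclei. The summed spindle markers were at 11407 CPM in spindle and 5805 in Reissner nuclei. The summed Reissner markers were at 3085 CPM in Reissner, 1310 in marginal and 1071 in spindle nuclei. Kcnq1 was at 3202 CPM in marginal nuclei of RNAlater, Dct at 19187 in intermediate, Cldn11 at 1293 in basal, Lgr5 at 762 in root, Anxa1 at 1987 in spindle and Slc26a7 at 2336 in Reissner nuclei. Dct also stood at 275 to 1039.7 CPM in the other 5 classes, and the part of RNA free in the droplets in the low values below was not tested. Mitochondrial genes made up 2.38% of UMIs in basal nuclei and 0.346 to 0.737% in the other classes, and their part in the basal levels was not tested.

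Of the barcodes, 3323 stand in both matrices, 85.9% of those of RNAlater and 70.0% of those of MethFix. Whether they are the same nuclei was not tested, and the libraries were counted as 1 sample. All 2049 barcodes that had one of the 6 classes in both libraries had the same class. Agreement between the libraries is therefore no replication, and the 965 MethFix nuclei kept whose barcodes are not in the RNAlater matrix are given separately below. The root class joined a pair of clusters in each library. In RNAlater, 34 nuclei were led by Slc26a4 and Lgr5, with 6234 CPM summed over the 6 root markers. Another 35 were led by Prss36 and Otogl, with 2646 CPM of these. The latter had 3184 CPM of the 6 genes of a list for cells that make the tectorial membrane, against 225 CPM in the first cluster. The first sum was mostly Slc26a4, at 4399 CPM against 729.8 CPM in the second cluster. Lgr5 (1279 against 91.2 CPM) and Tmprss3 (190 against 155 CPM) were also higher in the first cluster. Epyc (1159 against 365 CPM), Nr2f1 (474 against 0 CPM) and P2rx2 (36.5 against 0 CPM) were higher in the second.

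A solute carrier was called led by a class when its level there was at least 2-fold that of each of the other 5 classes in both libraries, with at least 20 UMIs in that class in RNAlater. A class with fewer than 3 UMIs entered at a floor of 3 UMIs, between 0.76 CPM in marginal and 15.4 CPM in spindle nuclei of RNAlater. Of the 174 solute carriers, 29 (16.7%) were led by a class, against 11.9% of all features with the same minimum. Marginal nuclei led 13 (7.47%, against 2.55% of all features), intermediate nuclei 6 (3.45%, against 2.67%) and basal nuclei 6 (3.45%, against 3.64%). Root nuclei led 2 (1.15%, against 1.25%), Reissner nuclei 2 (1.15%, against 1.26%) and spindle nuclei 0 (against 0.555%). The share was thus above the background for the marginal class and near it for the other classes, and these shares carry no test. The minimum of 20 UMIs is a higher level in a class with fewer UMIs. RNAlater held 3947905 UMIs in marginal, 251913 in root and 194270 in spindle nuclei, so the counts are not compared between classes. With a minimum of 10 UMIs, Slc35a5 and Slc5a11 were also led, both by root nuclei. The solute carriers together made up 1.12% of the UMIs of marginal nuclei in RNAlater and 0.715 to 0.823% of the other 5 classes. Among the smaller named groups of RNAlater outside the 6 classes, they made up 0.9217% in bone and 0.9305% in endothelial nuclei. In Schwann, fibrocyte, hair cell, tectorial and macrophage nuclei they made up 1.14 to 1.603%. The median ratio of the highest to the lowest class was 4.43 over the 174 solute carriers and 3.04 over all features with the minimum, and the highest class was the same in both libraries for 140 of 174.

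**Figure D1:**
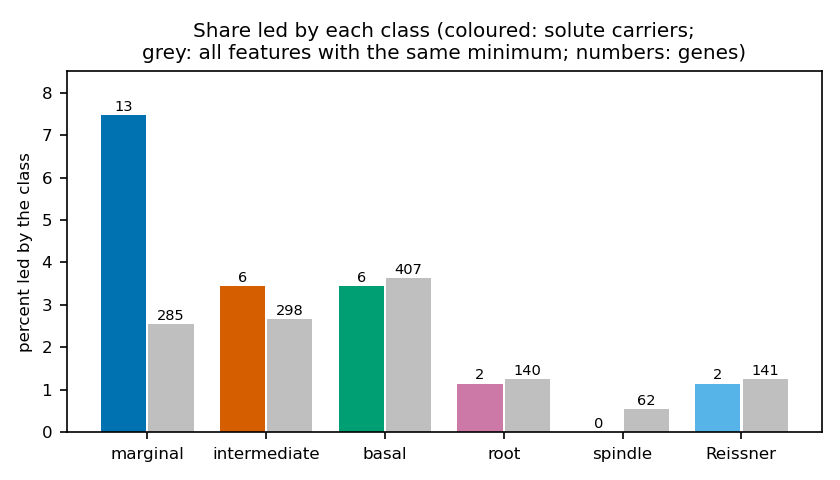
Percent of genes led by each of the 6 classes, with coloured bars for the 174 solute carriers, grey bars for all 11170 features with at least 100 UMIs, and the number of genes above each bar. The marginal bar of the solute carriers stands at 7.47%, against 2.55% for all features.

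The stretch from 240 to 121 bases before an annotated start is shown for 3 genes led by marginal nuclei and 1 led by intermediate nuclei, chosen because they hold letters of the motifs searched and, for Slc22a4 and Slc24a2, because the widest marginal and intermediate leads were theirs. For Slc31a2, Slc41a3 and Slc24a2 the stretch lies inside the gene span (chr4:62262562-62298411, chr6:90604725-90646412 and chr4:86983124-87230477). It is thus not the sequence before the whole gene. The sequences are those of RefSeq on GRCm38.p6, read 5' to 3' on the strand of the gene, and capitals mark CACGTG and CATGTG, E-box letters that MITF binds, and AAGGTCA, letters that ESRRB binds. MITF is the transcription factor of melanocytes and ESRRB is known for its need in marginal cells.
Slc22a4, chr11:54028225-54028344, minus strand: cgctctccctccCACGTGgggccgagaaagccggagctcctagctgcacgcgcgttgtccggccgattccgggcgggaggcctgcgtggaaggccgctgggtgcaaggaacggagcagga
Slc31a2, chr4:62286189-62286308, plus strand: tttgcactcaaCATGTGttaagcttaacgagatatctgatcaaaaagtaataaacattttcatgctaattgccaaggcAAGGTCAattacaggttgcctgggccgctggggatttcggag
Slc41a3, chr6:90619006-90619125, plus strand: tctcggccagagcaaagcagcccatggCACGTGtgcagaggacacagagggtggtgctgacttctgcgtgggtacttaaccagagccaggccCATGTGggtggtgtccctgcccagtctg
Slc24a2, chr4:87228084-87228203, minus strand: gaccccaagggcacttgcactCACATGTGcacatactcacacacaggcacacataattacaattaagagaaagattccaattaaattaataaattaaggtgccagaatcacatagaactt
In Slc24a2, CATGTG matched on both strands in overlapping letters.

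RefSeq promoters, 250 bases before to 50 bases after a start, were at hand for 137 of the 174 solute carriers and 20 of the 29 led by a class. On either strand, CACGTG stood in 4 of 10 genes led by marginal nuclei (Slc12a7, Slc22a4, Slc31a2 and Slc41a3) and in 0 of 4 led by intermediate nuclei, against 17.5% of all 137 and 8.09% of the 27025 genes in the table. CATGTG stood in 4 of 10 led by marginal nuclei and in 1 of 4 led by intermediate nuclei, against 13.1% of the 137 and 15.9% of all genes. AAGGTCA stood in 1 of 10 (Slc31a2) and 1 of 4 (Slc25a34), against 2.19% and 5.38%. A gene with several annotated starts counted once if any of its windows held the letters. These counts describe letters in these windows and not binding.

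Among the carriers led by marginal nuclei, Slc22a4 stood farthest from the other classes. It encodes a carrier of organic cations and ergothioneine that is linked to inherited hearing loss (chr11:53983123-54028090, minus strand, stretch before the RefSeq start shown above). Its level in RNAlater was 561 in marginal, 39.3 in basal, 4.08 in Reissner, 2.46 in intermediate, 0 in root and 0 in spindle nuclei. In marginal nuclei 2216 UMIs were counted (95% interval 538 to 585 CPM). The marginal level was 14.3-fold that of basal nuclei in RNAlater (95% interval 11.5 to 17.9) and 15.5-fold that of basal nuclei in MethFix (95% interval 12.3 to 19.7). The 4 marginal clusters of RNAlater ranged over 509 to 599 CPM, so that none reached down to the 39.3 CPM of basal nuclei. Its neighbour Slc22a21, 2791 bases away, is a carnitine carrier of the same family and was led by the same class, with 37.2 CPM in marginal and 14 CPM in basal nuclei of RNAlater. Its ratio rested on few UMIs outside the marginal class, and in MethFix it was 2.59-fold that of root nuclei with an interval of 0.869 to 12.7. How reads that fit both paralogs were counted is not given in the sources used here. The related Slc22a5, the main carnitine carrier, was highest in Reissner nuclei at 89.8 CPM, with 51.5 CPM in spindle nuclei next, and was led by no class.

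Carriers of metals made up 3 of the 13. Slc41a3, a magnesium carrier, had 224 CPM in marginal nuclei of RNAlater (883 UMIs) and between 8.57 CPM (basal) and 30.9 CPM (spindle) in the other 5 classes. The marginal level was 7.24-fold that of spindle nuclei in RNAlater (95% interval 3.31 to 19.8) and 8.81-fold that of spindle nuclei in MethFix (95% interval 4.03 to 24.1). Slc31a1 and Slc31a2 encode both known copper carriers of the plasma membrane and endosomes, and lie 62316 bases apart on chromosome 4. Slc31a2 had 132 CPM in marginal nuclei and between 14.3 CPM (Reissner) and 26.2 CPM (basal) in the other 5 classes, and its level was 5.03-fold that of basal nuclei in RNAlater (95% interval 3.83 to 6.72) and 4.18-fold that of basal nuclei in MethFix (95% interval 3.19 to 5.56). Slc31a1 had 162 CPM in marginal nuclei against 53.7 CPM in basal nuclei, with 3.01-fold and 2.72-fold in RNAlater and MethFix. Slc31a1 overlaps Cdc26 on the opposite strand, which had 415 UMIs over the RNAlater matrix, and whether the counting used strand is not given in the sources used here.

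Slc12a7, Slc2a13 and Slc19a2 followed, of which the first and the last are linked to hearing loss. Slc12a7 encodes the potassium-chloride cotransporter KCC4. It was at 389 in marginal, 91.3 in root, 56.6 in spindle, 44.9 in Reissner, 30.7 in basal and 24.2 in intermediate nuclei (CPM, RNAlater), which put the marginal level 4.26-fold that of root nuclei in RNAlater (95% interval 2.83 to 6.73) and 3.46-fold that of root nuclei in MethFix (95% interval 2.3 to 5.47). The root value came from the Prss36 and Otogl cluster, at 164 CPM, more than from the Slc26a4 and Lgr5 cluster, at 35.1 CPM. Outside the 6 classes Slc12a7 was higher than in marginal nuclei. It was at 978.5 CPM in 13 tectorial nuclei of RNAlater (55 UMIs) and 929.9 CPM in 14 of MethFix (50 UMIs). Slc2a13, the proton-coupled myo-inositol carrier, had 4219 UMIs in marginal nuclei of RNAlater. It stood at 1069 in marginal, 242 in root, 227 in spindle, 150.3 in intermediate, 85.8 in Reissner and 23.5 in basal nuclei (CPM), 4.41-fold that of root nuclei in RNAlater (95% interval 3.43 to 5.78) and 3.77-fold that of spindle nuclei in MethFix (95% interval 3.0 to 4.82). Slc19a2, the thiamine carrier whose loss causes deafness with anaemia and diabetes, had 65.1 CPM in marginal nuclei (257 UMIs) and at most 4.57 CPM elsewhere. Against the floor of 3 UMIs, its level was at least 4.22-fold that of spindle nuclei in RNAlater, which had 0 UMIs (lower 95% limit as counted 3.4). It was at least 4.02-fold that of root nuclei in MethFix, which had 0 UMIs (lower 95% limit as counted 3.245).

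Slc6a17 and Slc6a8 belong to the family of sodium- and chloride-coupled carriers. Slc6a17, which carries neutral amino acids into vesicles, had 102 CPM in marginal nuclei and 16.2 CPM in intermediate nuclei of RNAlater, and no UMI in root and spindle nuclei of both libraries. Its level was 6.29-fold that of intermediate nuclei in RNAlater (95% interval 4.63 to 8.73). Against the floor it was at least 7.38-fold that of root nuclei in MethFix, which had 0 UMIs (lower 95% limit as counted 5.975). Slc6a8, the creatine carrier, had 101 CPM in marginal nuclei and between 6.13 and 36.2 CPM in the others, 2.79-fold over the next class in RNAlater and 2.78-fold in MethFix. For the remaining 3 the ratio was nearer to the limit of 2-fold, for Slc34a3 only as a bound set by the floor. Slc25a25, the calcium-dependent mitochondrial ATP-Mg/phosphate carrier, had 314 CPM in marginal and 118 CPM in basal nuclei of RNAlater, and in MethFix root nuclei came next, at 122 CPM. The Slc26a4 and Lgr5 root cluster had 141 CPM of it in RNAlater and 179 CPM in MethFix, and with that cluster alone as the root class it was led by no class. Slc34a3, a sodium-phosphate cotransporter, had 39.8 CPM in marginal nuclei (157 UMIs) and no UMI in root, spindle and Reissner nuclei of RNAlater. Against the floor, its level was at least 2.575-fold that of spindle nuclei in RNAlater (lower 95% limit as counted 2.07). In MethFix it was at least 2.853-fold that of root nuclei, which had 0 UMIs (lower 95% limit as counted 2.296). Over marginal, intermediate and basal nuclei alone, its RNAlater ratio was 14.69. Slc16a7, the lactate and pyruvate carrier MCT2, had 125 CPM in marginal and 59.7 CPM in intermediate nuclei, a ratio of 2.1 (95% interval 1.76 to 2.51). With TMM scaling of the class totals it was led by no class, and 2 of the 4 marginal clusters of RNAlater and 1 of the 4 of MethFix were at 2-fold.

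**Figure D2:**
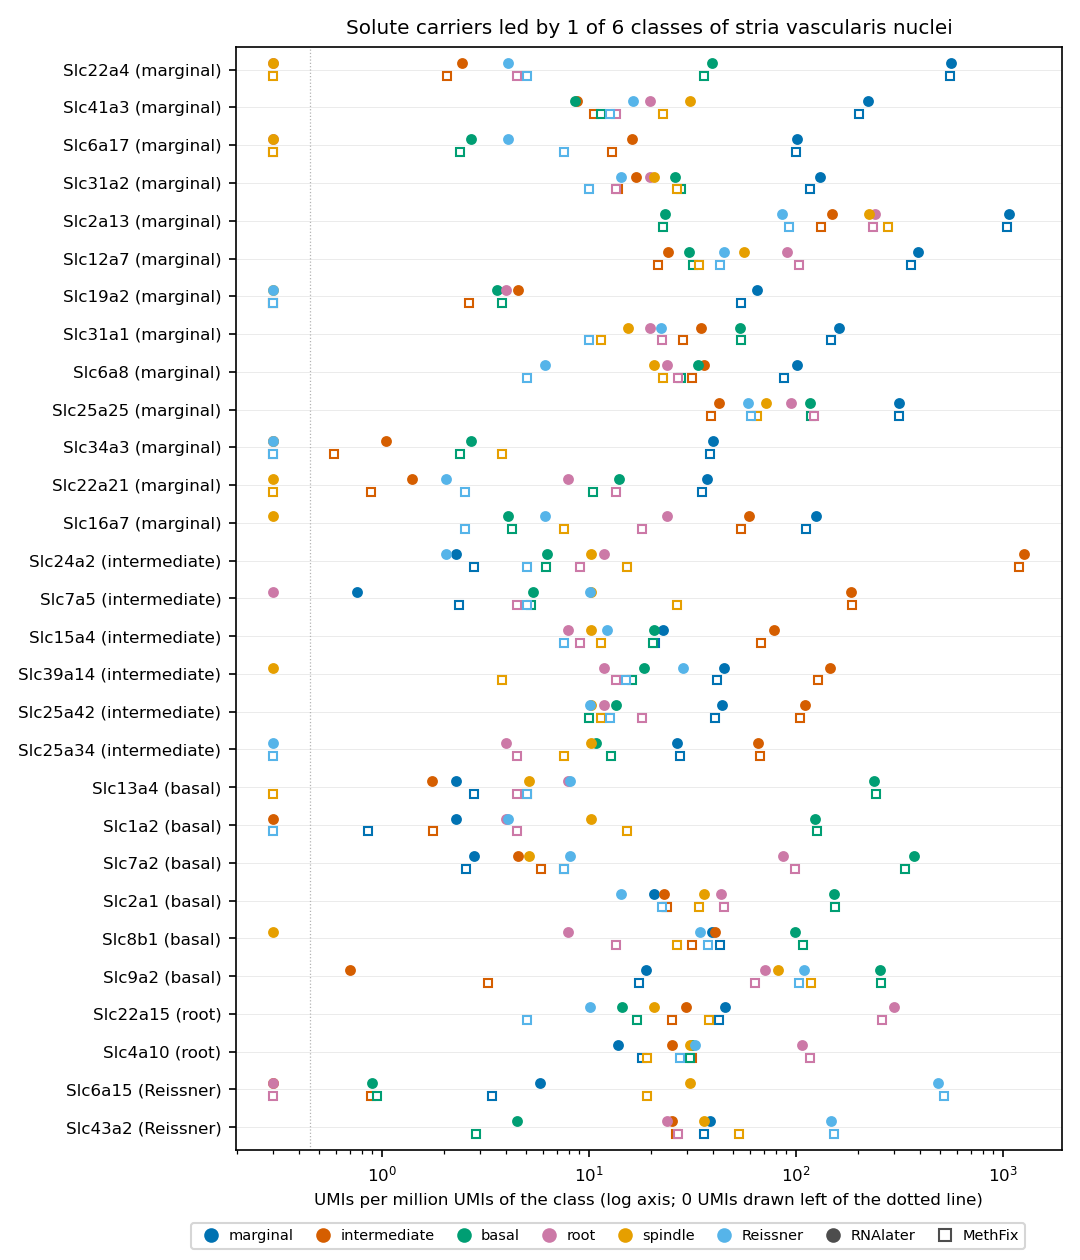
Level of the 29 solute carriers led by a class in each of the 6 classes, in CPM on a log axis, with filled circles for RNAlater, open squares for MethFix, 1 colour per class and the leading class in parentheses. The leading class stands to the right of the other 5 in every row, by 2.10-fold for Slc16a7 in RNAlater. Levels are drawn without the floor, so the gap drawn for Slc24a2 in RNAlater is wider than its 82.6-fold lead over the floored spindle level.

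In intermediate nuclei, Slc24a2 had the widest lead of all 29. It encodes a sodium/calcium-potassium exchanger known from neurons and cones (chr4:86983124-87230477, minus strand, stretch before a RefSeq start inside this span shown above). It stood at 1276 in intermediate, 11.9 in root, 10.3 in spindle, 6.32 in basal, 2.28 in marginal and 2.04 in Reissner nuclei (CPM, RNAlater), from 3631 UMIs in intermediate and 2 UMIs in spindle nuclei. At the floor for spindle nuclei the ratio was 82.6 in RNAlater. As counted, the ratio to spindle nuclei was 124 (95% interval 34.3 to 1023), though root nuclei stood above spindle nuclei. In MethFix the ratio to spindle nuclei was 78.5 (95% interval 30.7 to 288). The intermediate clusters ranged over 1149 to 1384 CPM in RNAlater and 660.0 to 1319 CPM in MethFix.

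Slc7a5 encodes LAT1, the exchanger that brings large neutral amino acids such as tyrosine into cells. It had 185 CPM in intermediate nuclei of RNAlater (526 UMIs) and between 0 CPM (root) and 10.3 CPM (spindle) in the other 5 classes. The ratio to spindle nuclei was 18 as counted in RNAlater (95% interval 4.94 to 149) and 7.01 in MethFix (95% interval 3.38 to 17.5). Slc7a5 overlaps Gm20388 on the opposite strand, which had 5985 UMIs over the RNAlater matrix, so its counts are uncertain to the extent that strand was not used. Slc3a2, the heavy chain that LAT1 needs, was also highest in intermediate nuclei, at 112 CPM, but basal nuclei were within 2-fold of it, at 81.7 CPM.

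The other 4 were led by 2- to 4-fold, each with marginal nuclei next. Slc15a4, a lysosomal carrier of histidine and peptides, had 79 CPM in intermediate and 22.8 CPM in marginal nuclei of RNAlater, 3.47-fold (95% interval 2.7 to 4.48). Slc39a14, an importer of zinc, manganese and iron, had 147 and 45.1 CPM, 3.26-fold (95% interval 2.73 to 3.91). One MethFix cluster of 140 intermediate nuclei had 38.4 CPM of it, under the 41.6 CPM of marginal nuclei there. Slc25a42, the mitochondrial coenzyme A carrier, had 111 and 44.3 CPM, 2.51-fold. Slc25a34, another mitochondrial carrier, had 66 and 26.6 CPM, 2.48-fold.

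The 6 carriers led by basal nuclei covered sulfate, glutamate, cationic amino acids, glucose, calcium and protons. Slc13a4, a sodium-sulfate cotransporter (chr6:35267957-35308131, minus strand), stood at 239 in basal, 8.17 in Reissner, 7.94 in root, 5.15 in spindle, 2.28 in marginal and 1.76 in intermediate nuclei (CPM, RNAlater), from 530 UMIs in basal nuclei and 1 to 9 UMIs in each of the others. At the floor for spindle nuclei the ratio was 15.5 in RNAlater. As counted, the ratio to spindle nuclei was 46.5 with an interval of 8.3 to 1839, though Reissner and root nuclei stood above spindle nuclei. The size of this ratio to spindle nuclei is thus known only to the lower bound. No interval was made for the ratio to Reissner nuclei, the next class as counted. Slc1a2, the glutamate carrier GLT-1, had 124 CPM in basal nuclei and between 0 CPM (intermediate) and 10.3 CPM (spindle) in the other 5 classes. The named Schwann nuclei of RNAlater, outside the 6 classes, were higher still, at 359 CPM.

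Slc7a2, which takes up arginine, lysine and ornithine, was at 373 in basal, 87.3 in root, 8.17 in Reissner, 5.15 in spindle, 4.57 in intermediate and 2.79 in marginal nuclei (CPM, RNAlater). The basal level was 4.27-fold that of root nuclei in RNAlater (95% interval 2.8 to 6.86) and 3.38-fold that of root nuclei in MethFix (95% interval 2.21 to 5.43). Slc2a1, the glucose carrier GLUT1, had 153 CPM in basal nuclei (340 UMIs) and between 14.3 CPM (Reissner) and 43.7 CPM (root) in the other 5 classes, 3.51-fold that of root nuclei in RNAlater (95% interval 1.94 to 7.11) and 3.43-fold that of root nuclei in MethFix (95% interval 1.84 to 7.22). Among 10 endothelial nuclei of MethFix it was at 1500.3 CPM from 22 UMIs. The summed endothelial markers stood at 40.2 CPM in basal nuclei of RNAlater, between the 3.97 CPM of root and the 77.2 CPM of spindle nuclei, with 1 of 6 markers at 0, and their part in the Slc2a1 level was not tested.

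Slc8b1 and Slc9a2 were closer to the limit. Slc8b1, the mitochondrial sodium/calcium exchanger, had 98.8 CPM in basal nuclei and 40.8 CPM in intermediate nuclei of RNAlater, 2.43-fold (95% interval 1.93 to 3.06). Slc9a2, a sodium/proton exchanger of the plasma membrane, stood at 255 in basal, 110.3 in Reissner, 82.4 in spindle, 71.5 in root, 19 in marginal and 0.703 in intermediate nuclei (CPM, RNAlater). Its basal level was 2.32-fold that of Reissner nuclei (95% interval 1.75 to 3.12).

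Root nuclei led Slc22a15 and Slc4a10. Slc22a15, a carrier of organic zwitterions (chr3:101855776-101924453, minus strand), was at 298 in root, 45.9 in marginal, 29.5 in intermediate, 20.6 in spindle, 14.4 in basal and 10.2 in Reissner nuclei (CPM, RNAlater), 6.49-fold that of marginal nuclei in RNAlater (95% interval 4.89 to 8.55) and 6.13-fold that of marginal nuclei in MethFix (95% interval 4.5 to 8.25). It was higher in the Slc26a4 and Lgr5 cluster (379.5 CPM in RNAlater, 357 in MethFix) than in the Prss36 and Otogl cluster (192 and 155 CPM), and both were above all other classes. Slc4a10, a sodium-driven bicarbonate carrier, was at 107 in root, 32.7 in Reissner, 31.6 in basal, 30.9 in spindle, 25.3 in intermediate and 13.9 in marginal nuclei (CPM, RNAlater). Its lead came mainly from the Slc26a4 and Lgr5 cluster, at 148 CPM against 54.7 CPM in the other, and at a resolution of 0.5 times the stated one it was led by no class. Outside the 6 classes it was higher, at 1901 CPM in 17 fibrocyte nuclei of RNAlater (120 UMIs) and 733 CPM in 62 bone nuclei of RNAlater (135 UMIs).

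Root and spindle nuclei were also compared with each other, with the same limit of 2-fold in each library and of 20 UMIs in RNAlater. Root nuclei were higher for 5 of 174 solute carriers (2.87%, against 3.37% of all features) and spindle nuclei for 4 (2.3%, against 2.85%), so both shares were near the background. Next to Slc22a15 and Slc4a10, the first 5 held carriers of aromatic and cationic amino acids and of vitamin C. Slc16a10 stood at 127 CPM in root and 0 CPM in spindle nuclei of RNAlater, and at 131 and 7.63 CPM in MethFix, and it carries aromatic amino acids and thyroid hormones. The root level was at least 8.23-fold that of spindle nuclei in RNAlater against the floor (lower 95% limit as counted 6.31). In MethFix it was 11.5-fold against the floor. As counted there, from 2 UMIs in spindle nuclei, it was 17.2-fold (95% interval 4.36 to 149). Slc7a2 stood at 87.3 CPM in root and 5.15 CPM in spindle nuclei of RNAlater, and at 99.7 and 7.63 CPM in MethFix, where spindle nuclei held 1 and 2 UMIs. Slc23a2 stood at 199 CPM in root and 72.1 CPM in spindle nuclei of RNAlater, and at 195 and 68.6 CPM in MethFix. Slc23a2 encodes the ascorbate carrier SVCT2, and its root level was 2.75-fold in RNAlater (95% interval 1.5 to 5.4) and 2.84-fold in MethFix (95% interval 1.6 to 5.23). In RNAlater it was at 260.0 CPM in the Slc26a4 and Lgr5 cluster (37 UMIs) and at 118.6 CPM in the Prss36 and Otogl cluster (13 UMIs).

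Among the 4 that were higher in spindle nuclei, Slc41a2, a magnesium carrier, had the most UMIs. Slc41a2 stood at 844 CPM in spindle and 199 CPM in root nuclei of RNAlater, and at 904 and 168 CPM in MethFix. The spindle level was 4.25-fold in RNAlater (95% interval 3.08 to 5.96) and 5.39-fold in MethFix (95% interval 3.8 to 7.85), and marginal nuclei came next with 501 CPM in RNAlater, so that it was led by no class. Its root value in RNAlater came more from the Slc26a4 and Lgr5 cluster (288.1 CPM, 41 UMIs) than from the Prss36 and Otogl cluster (82.1 CPM, 9 UMIs). Slc25a21 stood at 257 CPM in spindle and 35.7 CPM in root nuclei of RNAlater, and at 263 and 40.8 CPM in MethFix. Slc25a21 carries oxodicarboxylates into mitochondria, and its spindle level was 7.2-fold in RNAlater (95% interval 3.51 to 16.7) and 6.45-fold in MethFix (95% interval 3.21 to 14.7). Slc9a4 stood at 175 CPM in spindle and 47.6 CPM in root nuclei of RNAlater, and at 175 and 54.4 CPM in MethFix. Slc9a4 is a sodium/proton exchanger, and Slc10a7, of the bile acid carrier family, had 149 CPM in spindle and 67.5 CPM in root nuclei of RNAlater. An alternative, chosen after the data were seen, took the Slc26a4 and Lgr5 cluster alone as the root class. With it, 7 solute carriers were higher in spindle nuclei, among them Slc44a1 and Slc9a9. The share of all features that were higher there was not counted, so nothing is read from the number. Slc16a10 and Slc7a2 then fell under the minimum of 20 UMIs, with 9 and 8 UMIs in the 34 root nuclei of RNAlater (63.3 and 56.2 CPM), and stayed above the 15.4 CPM of the spindle floor.

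**Figure D3:**
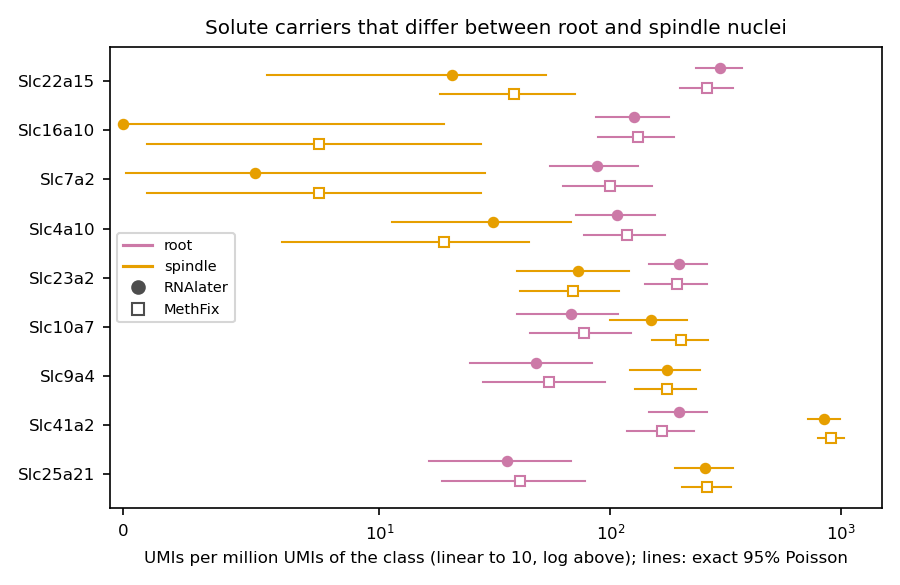
Level of the 9 solute carriers that differed by at least 2-fold between root and spindle nuclei in both libraries, in CPM, linear up to 10 and log above, with exact 95% Poisson intervals as lines, filled circles for RNAlater and open squares for MethFix. Slc41a2 stands at 844 and 904 in spindle nuclei, to the right of 199 and 168 in root nuclei.

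Reissner nuclei led Slc6a15 and Slc43a2, which both carry neutral amino acids. Slc6a15 (chr10:103367783-103419377, plus strand) had 486 CPM in Reissner nuclei of RNAlater (238 UMIs), 30.9 CPM in spindle nuclei (6 UMIs) and at most 5.83 CPM in the other 4 classes. The level was 15.7-fold that of spindle nuclei in RNAlater (95% interval 7.12 to 43.3) and 27.3-fold that of spindle nuclei in MethFix (95% interval 11.5 to 84.9). Slc43a2, the branched-chain amino acid carrier LAT4, was at 149 in Reissner, 38.5 in marginal, 36 in spindle, 25.3 in intermediate, 23.8 in root and 4.51 in basal nuclei (CPM, RNAlater), 3.87-fold that of marginal nuclei in RNAlater (95% interval 2.89 to 5.15) and 2.88-fold that of spindle nuclei in MethFix (95% interval 1.6 to 5.58).

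Another 7 solute carriers were shared by a pair of classes, with both at least 2-fold above the third in both libraries (values in CPM for RNAlater). The share of all features that pass this rule was not counted, so nothing is read from the number. Slc9a4 (175 CPM in spindle and 159 CPM in Reissner nuclei) and Slc25a21 (257 CPM in spindle and 194 CPM in Reissner nuclei) were shared by spindle and Reissner nuclei. Slc25a13, the mitochondrial aspartate/glutamate carrier citrin (185 CPM in intermediate and 126 CPM in marginal nuclei), and Slc25a35 (55.5 CPM in intermediate and 32.2 CPM in marginal nuclei) were shared by intermediate and marginal nuclei. Slc16a6, a monocarboxylate carrier known for ketone bodies, had 225 CPM in basal and 219 CPM in intermediate nuclei, and the second was 14.2-fold above the third class in RNAlater. Slc16a10 had 253 CPM in intermediate and 127 CPM in root nuclei. Its root value came more from the Prss36 and Otogl cluster (209.8 CPM, 23 UMIs) than from the Slc26a4 and Lgr5 cluster (63.3 CPM, 9 UMIs). Without the Prss36 and Otogl cluster, or with TMM scaling, Slc16a10 was led by intermediate nuclei. Slc41a1, the sodium/magnesium exchanger, had 253 CPM in basal and 166 CPM in marginal nuclei. The 3 members of the magnesium family thus stood highest in different classes, Slc41a1 in basal, Slc41a2 in spindle and Slc41a3 in marginal nuclei, in both libraries.

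Grouped by substrate, after the family number and not the substrate of each gene, the largest group was the 38 mitochondrial carriers, of which 3 were led by a class, and the median ratio of their highest to their lowest class was 3.48. The 23 carriers of nucleosides and nucleotide sugars held 0 led by a class and a median of 2.57. Metal carriers (20) held 4 and a median of 2.67, and amino acid carriers (22) held 4 and a median of 7.89. The largest medians were those of carboxylate carriers (7 genes, 30.9) and of carriers of organic ions and bile acids (8 genes, 17), of which 3 of 8 were led. The group of neurotransmitter and osmolyte carriers held 3 led of 6, acid-base and anion carriers 2 of 15, sugar and polyol carriers 2 of 10, calcium exchangers 2 of 5 and vitamin and choline carriers 1 of 8, where 16.7% of the 174 and 11.9% of all features were led. With so few genes in a group, nothing is read from these counts. Over all 174 the median was 4.43. The medians of carriers of phosphate, sialate and vesicular glutamate (4.01), lipids and fatty acids (3.58) and the cation-chloride cotransporters (2.01) lay under it too. No test was made between groups.

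**Figure D4:**
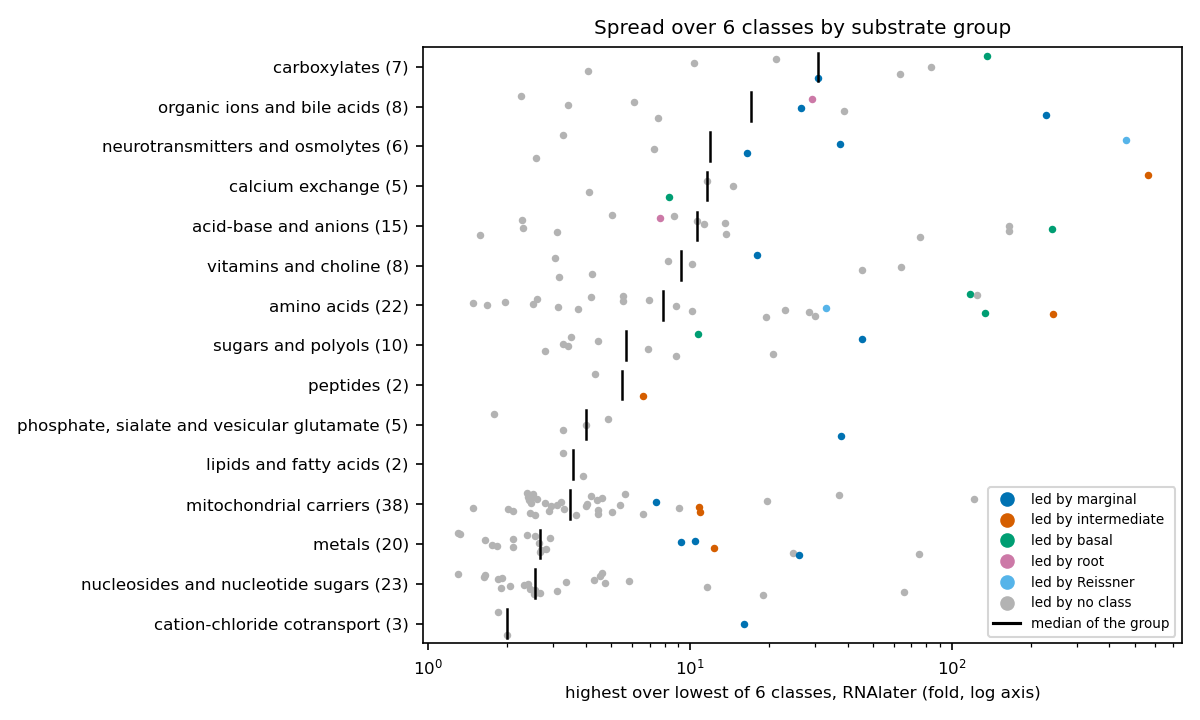
Ratio of the highest to the lowest of the 6 classes in RNAlater for each of the 174 solute carriers, on a log axis, by substrate group with the number of genes in parentheses, coloured by the class that leads the gene, grey where none does, and with a line at the median. The median lies at 30.9 for carboxylates and at 2.57 for nucleosides and nucleotide sugars.

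The carrier with the most UMIs in each group, counted in the RNAlater nuclei of the 6 classes, gives the level of the common members, of which 9 were led by no class. Slc25a12, the mitochondrial aspartate/glutamate carrier, was at 439.7 in marginal, 329.5 in root, 227 in intermediate, 185 in spindle, 145 in Reissner and 78.1 in basal nuclei (CPM, RNAlater). Slc44a3, of the choline carrier family, was at 829 in spindle, 719 in root, 708 in marginal, 294 in Reissner, 42 in basal and 13 in intermediate nuclei, so that root, marginal and spindle nuclei had intervals of 618 to 831, 682 to 734 and 706 to 967 CPM and lay far above intermediate and basal nuclei. Slc35f1 was at 276 in marginal, 229 in Reissner, 151 in basal, 103 in spindle, 51.6 in root and 4.22 in intermediate nuclei. Slc38a2, a carrier of small neutral amino acids, ranged from 106 to 208 CPM. Slc20a2, a phosphate carrier, ranged from 48.9 to 160.2 CPM, and Slc27a1, of the fatty acid carriers, from 26.5 to 86.8 CPM.

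The 5 most even solute carriers with at least 200 UMIs in the RNAlater nuclei of the 6 classes were Slc11a2, the iron carrier DMT1, Slc38a6, Slc25a36, a mitochondrial carrier of pyrimidine nucleotides, Slc9a8 and Slc30a9. Their highest class was 1.3-, 1.48-, 1.48-, 1.57- and 1.65-fold above the lowest. Slc30a9, a zinc carrier, for example was at 119 in marginal, 105 in basal, 100.1 in intermediate, 87.3 in root, 83.7 in Reissner and 72.1 in spindle nuclei (CPM, RNAlater).

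Of 16 solute carriers linked to hearing or its loss in mice or people, 11 had the minimum of UMIs and 3 were led by a class, all by marginal nuclei (Slc12a7, Slc19a2 and Slc22a4, above). Over all features with the minimum, 11.9% were led by any class and 2.55% by marginal nuclei, and over the 174 solute carriers 16.7% and 7.47%. Among the other 8, Slc1a3, the glutamate and aspartate carrier GLAST, was at 189 in basal, 131 in Reissner, 71.5 in root, 51.5 in spindle, 3.51 in intermediate and 1.52 in marginal nuclei (CPM, RNAlater), and Slc44a2 at 293 in basal, 282 in root, 144 in spindle, 93.9 in Reissner, 31.4 in marginal and 28.8 in intermediate nuclei. For Slc44a2, basal and root nuclei had intervals of 271 to 317 and 220.1 to 356 CPM, which overlap. Slc4a7, a sodium bicarbonate cotransporter, was highest in intermediate nuclei at 69.2 CPM, with 39.7 CPM in root nuclei next. Slc44a4 was highest in root nuclei at 47.6 CPM (12 UMIs), 2.31-fold that of spindle nuclei with an interval of 0.701 to 9.84. Slc30a4 was highest in spindle nuclei at 66.9 CPM, and Slc29a3 and Slc33a1 ranged over 10.3 to 15.9 and 31.1 to 51.5 CPM. Those under the minimum, with their UMIs over the RNAlater matrix, included Slc17a8 (73), Slc26a5 (55), Slc52a2 (93) and Slc52a3 (6).

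Several solute carriers were at least 2-fold higher outside the 6 classes than in any of them, in small groups of nuclei. Slc8a1, the sodium/calcium exchanger of the plasma membrane, was at 2907 CPM in 14 macrophage nuclei of RNAlater (80 UMIs), against at most 15.4 CPM in the 6 classes with the floor applied. Slc8a3, of the same family, was at 998 CPM in 17 fibrocyte nuclei of RNAlater (63 UMIs) and 543 CPM in 106 fibrocyte nuclei of MethFix (143 UMIs). The fibrocyte class covers different clusters in the libraries, and that of MethFix also holds nuclei with bone markers. Slc9a9, an endosomal sodium/proton exchanger, was at 3291 CPM in 13 tectorial nuclei of RNAlater (185 UMIs), and at 3343 CPM in 14 macrophage nuclei of RNAlater (92 UMIs). Slc4a4, a sodium bicarbonate cotransporter, was at 367 CPM in 76 Schwann nuclei of RNAlater (45 UMIs) against at most 44.9 CPM in the 6 classes.

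A cluster of 35 RNAlater nuclei that no list named, led by Tenm2, Cdh6, Nrxn3 and Robo2, held the highest levels of a further set. Slc1a3 was at 2622 CPM there, 13.9-fold the highest of the 6 classes. Slc7a14, a lysosomal member of the cationic amino acid family, was at 721 CPM (33.3-fold), and Slc7a11, the cystine/glutamate exchanger, at 320.3 CPM (20.7-fold). The cluster of 38 MethFix nuclei led by the same genes had 2566, 743 and 290.2 CPM of these.

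Solute carriers work with kinases, chaperones and enzymes, and 15 such genes were followed beside them, of which 12 had at least 100 UMIs. Of these 12, 3 were led by a class, where 11.9% of all features with the minimum were led. With so few genes, nothing is read from this count. Wnk4, a kinase that controls cation-chloride cotransport, was led by basal nuclei, at 287 CPM in RNAlater against 38.5 CPM in marginal nuclei. Its relative Wnk2 was highest in marginal nuclei, at 1014 CPM, with 655 CPM in root and 6.32 CPM in intermediate nuclei. Stk39, the kinase SPAK that acts between WNK kinases and the cotransporters, was at 2685 CPM in marginal, 2402 in root and 307 in intermediate nuclei, while Wnk1 ranged only from 299.7 to 777 CPM. Bsg and Nptn, the chaperones of the lactate carriers, were led by no class, with Bsg at 262 CPM in basal and 43.7 in root nuclei.

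The carbonic anhydrases, which supply bicarbonate and protons to the acid-base carriers, differed between classes. Car12 was led by root nuclei, at 1759 CPM against 651 CPM in marginal nuclei, and Car2 by intermediate nuclei, at 281 CPM against 103 CPM in basal nuclei. Car14 was highest in intermediate (313 CPM) and Car13 in spindle nuclei (175 CPM), both under 2-fold. Slc9a3r1 and Slc9a3r2, scaffolds of the sodium/proton exchangers, were led by no class. Wnk3 (56 UMIs) and Emb (66), another chaperone of the lactate carriers, were under the minimum, though 20 UMIs of Emb stood in root nuclei of RNAlater (79.4 CPM) and at most 3 in any other class, and Oxsr1 was listed at 0 throughout.

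Between the libraries, over all nuclei kept, 1 of 174 solute carriers was at least 2-fold higher in RNAlater (0.575%, against 0.618% of all features) and 0 were higher in MethFix (against 0.295%), counted without a test. It was Slc17a9, the vesicular nucleotide carrier, at 21.7 CPM in RNAlater (229 UMIs) and 6.22 CPM in MethFix (75 UMIs), 3.49-fold (95% interval 2.68 to 4.6). In the 2256 barcodes kept in both libraries it had 226 UMIs in RNAlater and 52 in MethFix. The other 173 lay between 0.63 and 1.33 (MethFix over RNAlater).

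The MethFix nuclei whose barcodes are not in the RNAlater matrix give levels from other droplets, with 318 marginal, 298 intermediate and 130 basal nuclei, and at most 38 of the other classes. Among these 3 classes, all 25 solute carriers led by one of them were highest in that class, and 20 were at least 2-fold above the next of the 3. These nuclei also entered the MethFix levels from which the 25 were called, so these counts do not stand apart from the calls. Slc22a4 had 499.8 CPM (398 UMIs) in these marginal nuclei and 20.7 CPM in the basal nuclei. Slc24a2 had 957 CPM (737 UMIs) in intermediate nuclei and 10.4 CPM in basal nuclei. Slc13a4 had 280.0 CPM (54 UMIs) in basal nuclei and 15.6 CPM in intermediate nuclei, 18-fold (95% interval 9.5 to 36.9), where the RNAlater ratio over the same 3 classes was 105.

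The 5 under 2-fold were Slc16a7, Slc22a21, Slc6a8, Slc19a2 and Slc34a3, all led by marginal nuclei. Slc16a7 had 67.8 CPM (54 UMIs) in these marginal and 67.5 CPM in the intermediate nuclei, a ratio of 1.0 (95% interval 0.673 to 1.5), which leaves no lead of marginal nuclei in these droplets. Slc6a8 had a ratio of 1.6 (95% interval 0.62 to 5.25) and Slc22a21 had 13 UMIs in marginal and 2 in basal nuclei. For Slc19a2 and Slc34a3 no UMI was found in the basal nuclei, and the floor of 3 UMIs among 192830 kept the ratios at 1.86- and 1.94-fold (lower 95% limits as counted 1.392 and 1.458). The leads of root and Reissner nuclei could not be given in other droplets, since only 4 and 11 such nuclei were found.

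**Figure D5:**
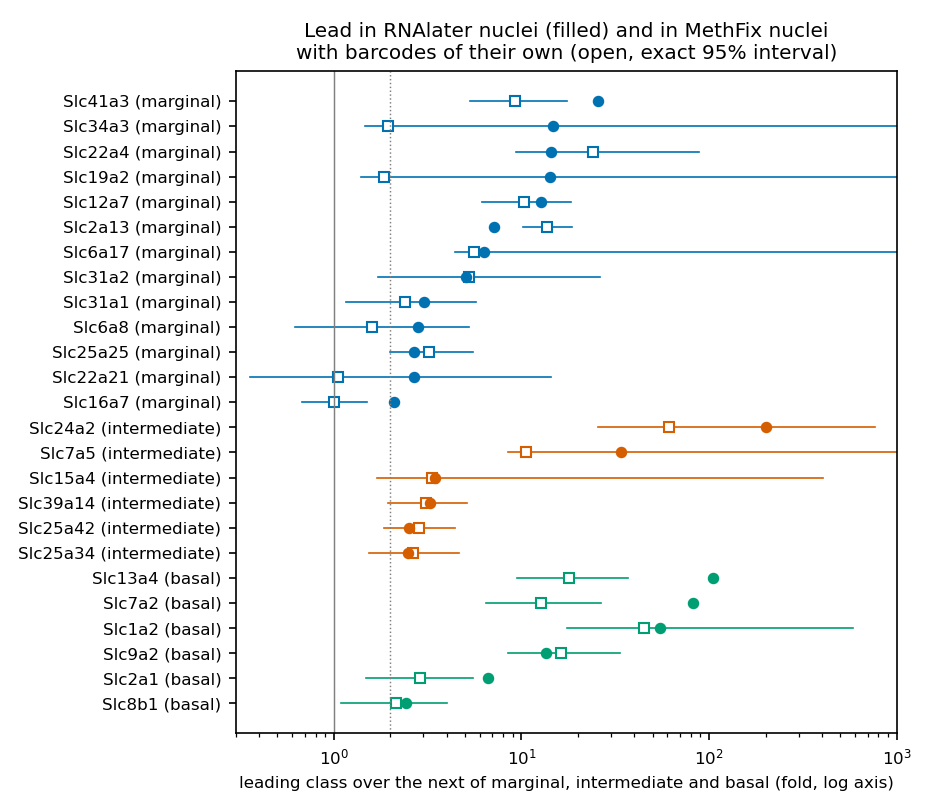
Ratio of the leading class to the next of marginal, intermediate and basal nuclei for the 25 solute carriers led by one of these 3, on a log axis, with filled circles for RNAlater and open squares with exact 95% intervals for MethFix nuclei whose barcodes are not in the RNAlater matrix. The solid line stands at 1 and the dotted line at 2, and Slc16a7 lies at 1.00 in the MethFix nuclei.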

How the data were processed

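Nuclei were captured on the 10x Genomics platform, and the authors deposited filtered matrices of UMI counts with barcode and feature names, made with Cell Ranger 3.0.1 on GRCm38 (the submitters' processing notes also name Scanpy 1.4.5). The paper names default settings for Cell Ranger, and how these treat strand and multiply mapped reads is not given in the sources used here. The deposited counts were used as they stand. Nuclei with at least 200 genes, at most 8000 UMIs and at most 10% mitochondrial UMIs were kept, and Scrublet calls were removed (18 in RNAlater, 224 in MethFix). Each library was clustered with scanpy 1.11.5 (4000 variable genes without the solute carriers described, 30 components, 10 neighbours, Leiden resolution 1.5 for RNAlater and 1.0 for MethFix). Clusters took the name of the best scoring of 17 marker lists, by a scoring rule set after the clusters were seen, so the names are rebuilt here. No model was fitted, since each method has 1 library, and edgeR 4.0.16 gave scaling factors for an alternative only.

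The solute carriers, lists and rules were chosen with earlier results of these data known. Genes are named by rule: the first 5 carriers led by each class by ratio, the carrier with the most UMIs in each substrate group, the 5 most even, a hearing list and a list of partner genes. The other carriers led by a class, those that differed between root and spindle nuclei or between libraries, those shared by a pair of classes and those highest outside the 6 classes were named after their values were seen. A planned comparison of protein sequences was not made. The counting of led genes was tested on simulated data. These held leads wider than the 2-fold limit, in genes with many UMIs, and so say nothing on calls near that limit. Values of some solute carriers that these rules name are not reported here.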

Additional observations from a re-analysis of the deposited data

How the results depend on the processing

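No paired analysis was possible because each preservation method has 1 library and no test was made. Of the 29 solute carriers led by a class, 28 or 29 stayed so with TMM scaling, without the upper UMI limit, with doublets kept, with a mitochondrial limit of 5%, at 0.5 or 2 times the clustering resolution and with solute carriers among the clustering genes, where 29 to 34 were led in all (Slc16a7 was lost with TMM scaling and Slc4a10 at 0.5 times the resolution). In these settings 16.7 to 19.5% of the 174 were led, against 11.7 to 12.9% of all features. With values from the MethFix matrix alone, 32 were led (18.4%, against 13.6% of all features), 5 of them by Reissner nuclei. With these values 17 differed between root and spindle nuclei (10 higher in root and 7 in spindle). Without the upper UMI limit 14 differed, 8 of them higher in root. Root nuclei led 1 at 0.5 times the resolution and 4 with a minimum of 10 UMIs. At 4-fold, 11 were led (6.32%, against 4.67% of all features). Marginal nuclei led 5 of them, intermediate 2, basal 2, root 1 and Reissner nuclei 1. With MethFix nuclei of own barcodes in place of all MethFix nuclei, 2 were led (1.15%, against 1.57% of all features). The floor of 3 UMIs is high among the 4 root nuclei, which limits this count, and the root and spindle comparison could not be given. Over marginal, intermediate and basal nuclei alone, chosen after the data were seen, 24 were led (13.8%, against 8.0% of all features), 20 of them among the 29. Without the root cluster with the lower sum of root markers, also chosen after the data were seen, 7 were higher in spindle nuclei, and Slc22a21, Slc25a25 and Slc34a3 were no longer led. In the remaining root cluster of RNAlater, with 142293 UMIs, Slc22a21 and Slc34a3 had 0 UMIs and entered at the floor. The floor limits the ratios of both, while Slc25a25 had 20 UMIs there. For single classes and for root against spindle nuclei, the share of all features was not counted under these alternatives. Nothing is read from those counts. The cause of these changes was not tested where none is named. Depth limits the root and spindle classes, where 3 UMIs are 11.9 and 15.4 CPM.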
